A study of Mus musculus with 12 samples.

Results

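The genes described here encode the subunits of voltage-gated calcium and sodium channels. They were picked by symbol from the 55487 genes of the deposited table, and 38 are described. Of these, 19 encode pore-forming subunits (10 Cacna1 genes for calcium, 9 Scn alpha genes for sodium), and 19 encode accessory subunits (4 Cacna2d, 4 Cacnb, 8 Cacng and 3 Scn beta genes). RNA-seq was available for 12 mouse libraries, 3 in each of 4 groups, all derived from spheres of cochlear glial cells of postnatal day 4 mice on a mixed C57Bl6 and FVB/N background. Spheres were grown in EGF (20 ng/ml), bFGF (10 ng/ml), IGF (50 ng/ml) and heparan sulfate (50 ng/ml). In SCDM, cells from such spheres were differentiated for 14 days with BDNF and NT3 (50 ng/ml each) in DMEM/F12, and SCDM/FGF also held bFGF at 100 ng/ml. FIBCL cells were kept for 14 days in Neurobasal medium with bFGF, LIF (1000 U/ml) and the small molecules CHIR99021 (10 μM), I-BET (1 μM), ISX9 and Forskolin (20 μM each), with no BDNF or NT3 listed. The labels list bFGF in this medium both at 50 and at 100 ng/ml, and base medium, growth factors and small molecules cannot be told apart as sources of a difference. Each dissection pooled 6 to 8 mice of both sexes, and no cell sorting is stated for these libraries.

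A voltage-gated calcium or sodium channel is built around a large alpha subunit that forms the pore, senses the membrane voltage and sets the current type. Sodium channels carry the upstroke of the action potential. Calcium channels turn depolarisation into calcium entry, which at nerve terminals triggers transmitter release. Accessory subunits bring the pore to the membrane and tune its gating. In the cochlea, spiral ganglion neurons depend on both channel types to fire and to signal to the brainstem, and Schwann and satellite glia hold smaller amounts of them.

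The sodium channel alpha genes differ at a single codon of the first pore loop that is known to decide how well tetrodotoxin, the puffer fish toxin, blocks the channel. An aromatic residue there goes with high sensitivity, whereas serine goes with resistance. The coding sequence around this codon is shown for Scn2a and Scn8a, which differed in opposite directions between FIBCL and SCDM, and for Scn10a, a pore of sensory neurons, as a sequence with serine. It was read from GENCODE M21 transcripts (GRCm38), 5′ to 3′ on the coding strand, with the codon in capitals. The site falls at residue 385 in exon 8 of Scn2a (codon at chr2:65688436-65688438) and residue 371 in exon 9 of Scn8a (chr15:100971638-100971640). In Scn10a it falls at residue 356 in exon 8 (chr9:119666387-119666389, minus strand). Exons are numbered along the whole transcript, with any untranslated exons counted.

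Scn2a: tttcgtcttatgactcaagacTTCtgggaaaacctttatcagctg

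Scn8a: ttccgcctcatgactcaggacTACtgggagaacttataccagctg

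Scn10a: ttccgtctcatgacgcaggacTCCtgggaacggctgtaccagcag

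The codon encodes phenylalanine in Scn2a, tyrosine in Scn8a and serine in Scn10a. Scn1a also had phenylalanine at this place, Scn3a, Scn4a and Scn9a had tyrosine, and Scn11a had serine. In Scn7a the residues that flank the site did not match, and no codon was assigned.

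Expression was deposited as TPM, an abundance measure corrected for gene length and library size. Each library was rescaled on genes expressed throughout, and the values below are called scaled TPM. Differences are given on the log2(scaled TPM + 1) scale, which understates the change of genes near 0, with the standard error (SE) and the p from limma adjusted over all 16016 genes tested. A gene was called higher or lower at an adjusted p under 0.05. Of the 38 subunit genes, 21 passed the filter of 1 TPM in 3 libraries (9 pore-forming, 12 accessory), and 17 were not tested. Cacna1b, Cacna2d3 and Cacng5 passed only through the FIBCL libraries, so that a difference of these 3 was built into the filter.

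Against SCDM, the FIBCL libraries held more RNA for most of the tested subunits. The genes Scn8a, Scn3b, Cacna1h and Cacna1a were higher by at least 2.76 on the log2 scale, while Scn2a and Scn7a were lower. Cacna1b was also higher by more than 2.76, but a difference of this gene was built into the filter. In all, 15 tested subunit genes were higher and 2 were lower, and 4 were not called. Over all genes tested, 32.7% were called higher and 39.0% lower in this comparison. Counting genes past 1 on the log2 scale in either direction, the results were 12 higher and 2 lower, against 13.2% and 16.1% of all genes. The median log2 fold change was 1.205 over the 21 subunit genes and -0.07 over all genes. Members that passed the filter through their high group enter these counts, so they describe the tested subunits and are no measure of all 38.

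**Figure D1:**
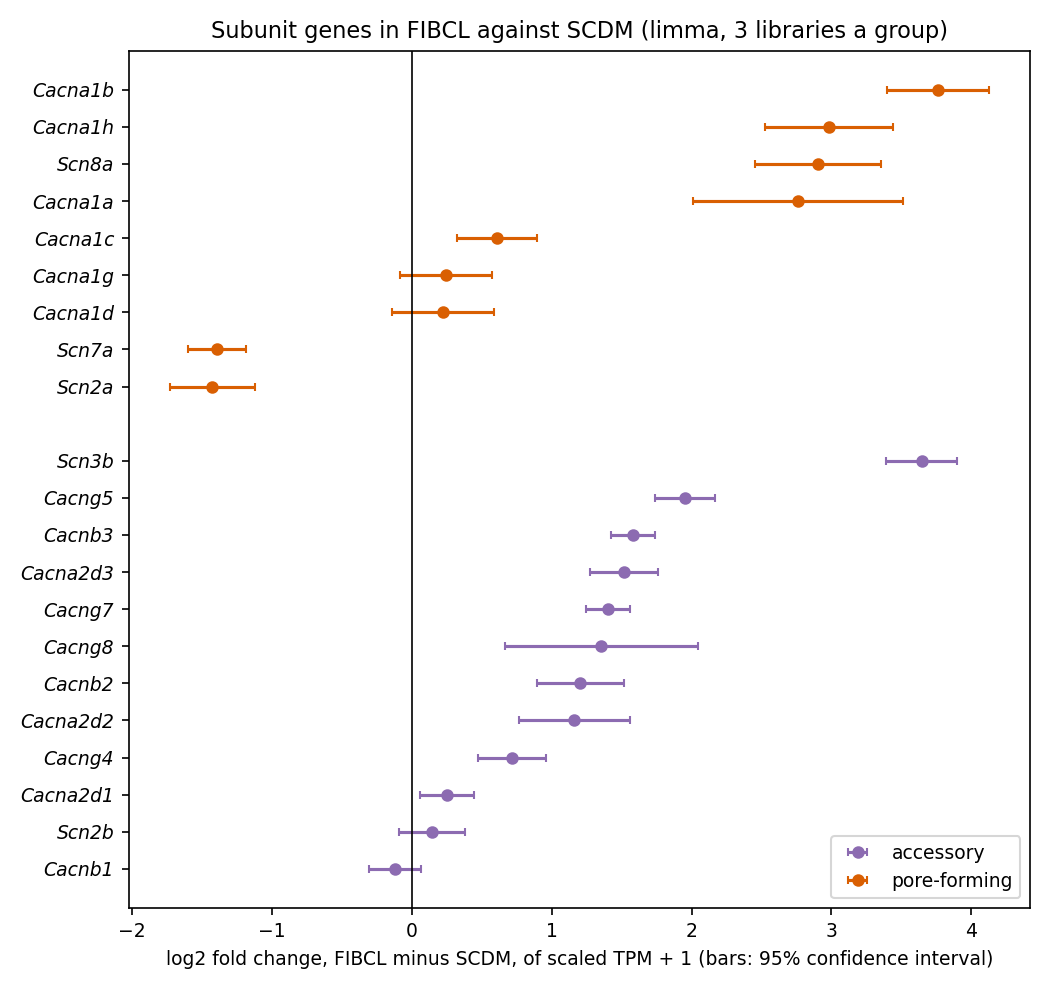
Log2 fold changes of the 21 tested subunit genes, FIBCL minus SCDM, on the log2(scaled TPM + 1) scale, with 95% confidence intervals from limma. Pore-forming genes (orange) run from -1.43 for Scn2a to 3.76 for Cacna1b, and accessory genes (purple) from -0.12 for Cacnb1 to 3.64 for Scn3b. Cacng5 was listed at 0 in SCDM, so its position depends on the added 1.

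Among pore-forming genes, 5 of 9 were higher and 2 were lower. Among accessory genes, 10 of 12 were higher and 0 were lower. Over all genes tested, 32.7% were higher and 39.0% lower. The higher calls include Cacna1b among the pore-forming and Cacna2d3 and Cacng5 among the accessory genes, whose differences were built into the filter. Scn2b and Cacnb1 were the accessory genes without a call. The median log2 fold change was 0.61 over the pore-forming and 1.28 over the accessory genes, and no test compared the 2 classes.

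Scn8a encodes the main alpha subunit of nodes of Ranvier and axon initial segments. Its level in scaled TPM was 10.1, 9.83 and 7.72 in FIBCL, 1.02, 0.838 and 1.82 in spheres, 0.285, 0.196 and 0.632 in SCDM and 1.12, 0.473 and 0.457 in SCDM/FGF. The FIBCL libraries lay above all others, and the log2 fold change was 2.90 against SCDM (SE 0.21, adjusted p = 1.4e-07), 2.62 against SCDM/FGF and 2.22 against spheres.

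Scn2a, an alpha subunit of unmyelinated and immature axons, went the other way. Its scaled TPM was 0.801, 0.504 and 0.486 in FIBCL, 1.61, 1.76 and 2.22 in spheres, 2.67, 3.47 and 3.75 in SCDM and 1.31, 1.35 and 1.74 in SCDM/FGF. SCDM was the highest group and FIBCL the lowest, without overlap between them. The gene fell by 1.43 on the log2 scale against SCDM (SE 0.14, adjusted p = 2.2e-06).

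Scn7a encodes a sodium-level sensing relative of the family that is known from Schwann cells and other glia. Its level in scaled TPM was 0.012, 0.0123 and 0 in FIBCL, 0.897, 0.847 and 1.11 in spheres, 1.58, 1.64 and 1.70 in SCDM and 1.87, 1.68 and 1.52 in SCDM/FGF. It was close to absent in FIBCL and present in all 9 other libraries, and it fell by 1.39 against SCDM (SE 0.09, adjusted p = 1.01e-07). From spheres it was higher by 0.44 in SCDM (adjusted p = 0.0024) and by 0.46 in SCDM/FGF (adjusted p = 0.00167). Glial markers summed to 16.2 to 22.1 scaled TPM in FIBCL, 514 to 543 in spheres, 174 to 203 in SCDM and 173 to 192 in SCDM/FGF. Fibroblast markers summed to 26.3 to 29.4 in FIBCL and 1777 to 1809 in spheres, and to 4435 to 4620 and 3013 to 3043 for SCDM and SCDM/FGF. The higher sum in SCDM than in spheres came from Col1a2 (mean 3381 against 491) and Col1a1 (394 against 39.8). Dcn (535 against 849), Lum (148 against 290) and Pdgfra (60.8 against 128) were lower in SCDM than in spheres. In SCDM/FGF the means of all these genes were above those of spheres. The part of either cell type in the level of Scn7a was not tested. In these bulk libraries, fewer cells of a type and less RNA per cell cannot be told apart.

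Another 6 sodium channel alpha genes did not pass the filter. The highest value of any library was 0.269 scaled TPM for Scn1a, 0.187 for Scn3a, 0.121 for Scn9a, 0.0919 for Scn11a, 0.0615 for Scn10a and 0.0302 for Scn4a. Scn2a, Scn3a, Scn1a, Scn9a and Scn7a lie together on chromosome 2 (chr2:65457118-66784914), where Scn2a and Scn7a passed the filter and the other three did not.

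The order of Scn2a, Scn7a and Scn8a differed between groups. In SCDM, Scn2a was at 3.30 ± 0.56 scaled TPM (SD, n = 3), Scn7a at 1.64 ± 0.06 and Scn8a at 0.371 ± 0.231, and the 3 genes did not overlap. In FIBCL, Scn8a was at 9.22 ± 1.31, Scn2a at 0.597 ± 0.177 and Scn7a at 0.00808 ± 0.00700, again without overlap. In spheres, Scn8a overlapped Scn2a above it and Scn7a below it, and in SCDM/FGF, Scn7a and Scn2a overlapped. Of the codons shown above, the phenylalanine codon belonged to the gene that was higher of Scn2a and Scn8a in SCDM, and the tyrosine codon to the one that was higher in FIBCL.

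**Figure D2:**
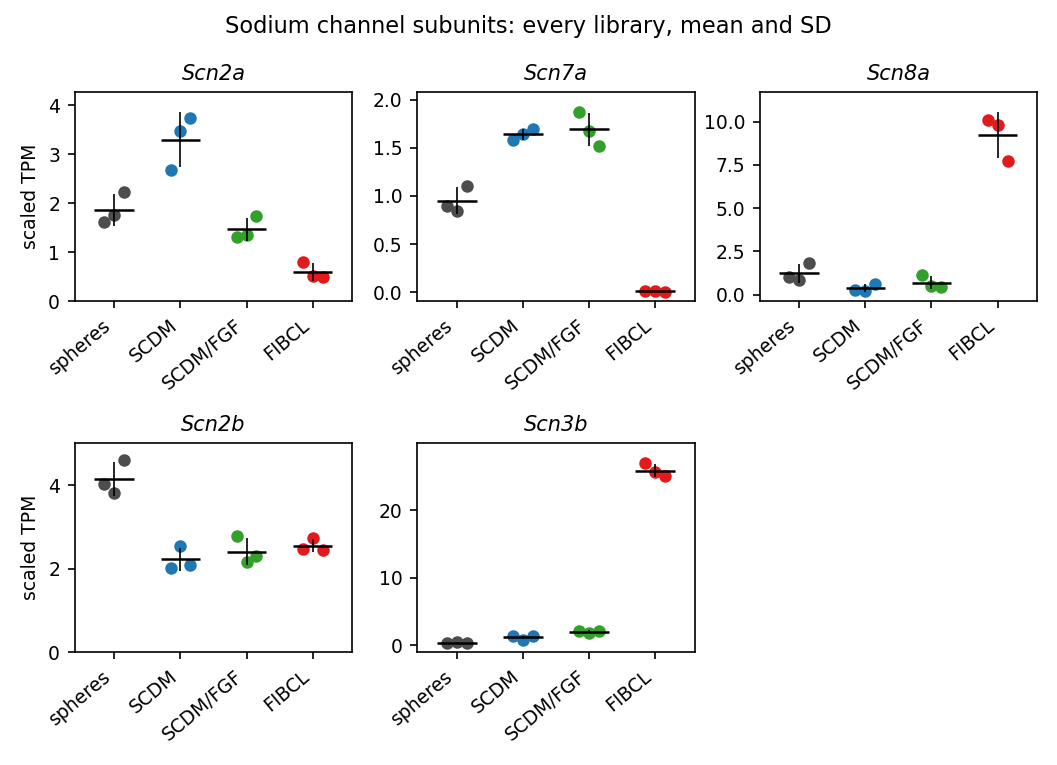
Scaled TPM of 5 sodium channel genes in each of the 12 libraries (points), with the group mean (horizontal line) and SD (vertical line); each panel has its own linear axis. Scn8a and Scn3b stand apart in FIBCL, whereas Scn2a and Scn7a are lowest there.

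The sodium channel beta subunits are single-pass membrane proteins that adjust gating and take part in cell adhesion. Scn3b, a beta subunit of neurons and heart, had scaled TPM of 26.9, 25.6 and 25.0 in FIBCL, 0.381, 0.515 and 0.327 in spheres, 1.31, 0.830 and 1.34 in SCDM and 2.17, 1.78 and 2.09 in SCDM/FGF. The 4 groups did not overlap, with spheres lowest and FIBCL highest. The log2 fold change was 3.64 against SCDM (SE 0.11, adjusted p = 1.33e-10), 3.16 against SCDM/FGF and 4.26 against spheres. Scn2b, which pairs with alpha subunits through a disulfide bond, had scaled TPM of 2.47, 2.74 and 2.45 in FIBCL, 4.03, 3.82 and 4.598 in spheres, 2.03, 2.55 and 2.10 in SCDM and 2.78, 2.15 and 2.304 in SCDM/FGF. The 3 differentiated groups overlapped, and spheres were above all of them. Between FIBCL and SCDM the log2 difference was 0.14, with a 95% confidence interval from -0.09 to 0.38. Scn4b, a beta subunit of resurgent current, stayed at or under 0.246 scaled TPM in every library and was not tested.

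The calcium channel pore genes held the most RNA in FIBCL. Their summed scaled TPM was 105.8 ± 7.8 in FIBCL, 45.0 ± 4.4 in spheres, 32.5 ± 3.7 in SCDM and 33.8 ± 1.8 in SCDM/FGF (means with SD, n = 3). FIBCL was above all other libraries, spheres came next, and SCDM overlapped SCDM/FGF.

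Cacna1a, the P/Q-type pore of fast transmitter release, had scaled TPM of 34.5, 36.3 and 43.3 in FIBCL, 2.23, 3.36 and 9.38 in spheres, 6.10, 3.46 and 4.95 in SCDM and 7.64, 7.44 and 8.67 in SCDM/FGF. The third sphere library was well above the other two, and FIBCL was above every other library. The log2 fold change was 2.76 against SCDM (SE 0.34, adjusted p = 1.81e-05), 2.13 against SCDM/FGF and 2.88 against spheres, or 3.37 without the third sphere library.

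Cacna1b encodes the N-type pore, which also serves release at nerve terminals. Its scaled TPM was 15.8, 10.6 and 17.2 in FIBCL, 0.186, 0.297 and 0.487 in spheres, 0.0761, 0.205 and 0.0944 in SCDM and 0.558, 0.785 and 0.548 in SCDM/FGF. No library outside FIBCL reached 1, so that a difference was built into the filter. The log2 fold change was 3.76 against SCDM (SE 0.16).

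Cacna1h, a T-type pore that opens at low voltage, had scaled TPM of 22.5, 17.1 and 18.7 in FIBCL, 12.3, 8.59 and 7.44 in spheres, 2.39, 1.60 and 0.915 in SCDM and 5.75, 5.81 and 6.23 in SCDM/FGF. All 4 groups were separate, in the order SCDM, SCDM/FGF, spheres and FIBCL. The log2 fold change against SCDM was 2.98 (SE 0.21, adjusted p = 1.26e-07). Against spheres it was 0.99 and was not called on the TPM as deposited (0.48, adjusted p = 0.0594).

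Cacna1g, the other T-type pore that passed the filter, behaved differently from Cacna1h. It was measured at scaled TPM of 21.3, 22.3 and 23.8 in FIBCL, 22.6, 19.8 and 22.6 in spheres, 21.2, 16.8 and 18.5 in SCDM and 6.63, 4.46 and 7.71 in SCDM/FGF. SCDM/FGF was the low group, and the other 3 groups lay in a narrow band. FIBCL was higher than SCDM/FGF by 1.72 (SE 0.15, adjusted p = 9.15e-07). Against SCDM the difference was 0.25, with a 95% confidence interval from -0.08 to 0.57.

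The L-type pore genes differed by less than 1 on the log2 scale between FIBCL and SCDM. Cacna1c, the L-type pore of muscle and brain, had scaled TPM of 8.72, 7.04 and 6.47 in FIBCL, 1.79, 2.50 and 2.38 in spheres, 4.24, 5.05 and 4.17 in SCDM and 6.71, 7.73 and 6.51 in SCDM/FGF. It was lowest in spheres, and FIBCL overlapped SCDM/FGF. FIBCL was higher than SCDM by 0.61 (SE 0.13, adjusted p = 0.00115), and this call was lost on the TPM as deposited (0.27, adjusted p = 0.105). Cacna1d, the L-type pore known from hair cells, had scaled TPM of 2.70, 3.65 and 2.72 in FIBCL, 5.79, 5.00 and 5.60 in spheres, 2.70, 3.17 and 1.60 in SCDM and 5.97, 5.00 and 4.96 in SCDM/FGF. Spheres and SCDM/FGF overlapped as the higher pair, and SCDM and FIBCL overlapped as the lower pair. Against SCDM the FIBCL difference was 0.22, with a 95% confidence interval from -0.14 to 0.59. Cacna1d overlaps Dcp1a on the opposite strand, which reached 21.8 TPM, and Cacna1c overlaps Dcp1b, which reached 8.36. Alignment with TopHat is stated to have used an orientation mode, but whether reads were counted by strand is not stated, so that reads of such pairs may not be told apart.

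Cacna1e, the R-type pore, did not pass the filter, with 0.0566 to 0.973 scaled TPM. The highest library was at 0.564 for Cacna1i (a T-type pore), 0.152 for Cacna1f (the retinal L-type pore) and 0.235 for Cacna1s (the skeletal muscle L-type pore). Cacna1s was above 0 in 2 SCDM/FGF libraries only among the 12.

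In SCDM, Cacna1g led the calcium pore genes with 58.0% ± 3.0 of their sum, followed by Cacna1a with 14.8% ± 2.9, which overlapped Cacna1c. In FIBCL, Cacna1a led with 35.9% ± 3.1, and the next were Cacna1g with 21.3% ± 1.4, Cacna1h with 18.4% ± 2.4 and Cacna1b with 13.6% ± 2.4. The shares of Cacna1g and Cacna1h overlapped there, and those of Cacna1h and Cacna1b did not. In SCDM/FGF, the 5 leading genes each overlapped their neighbours in the order.

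**Figure D3:**
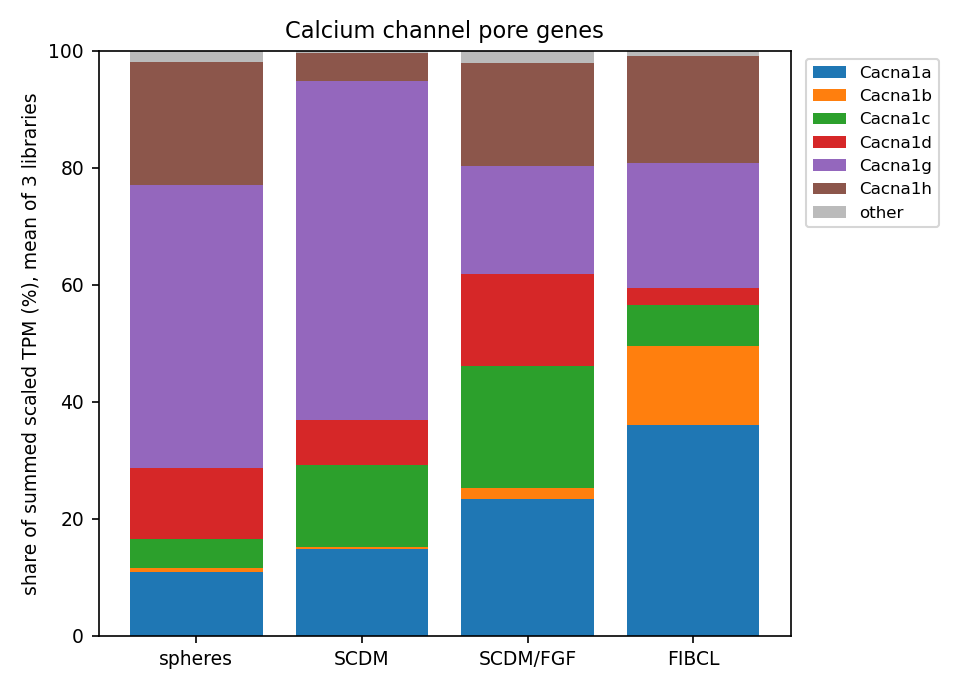
Share of each pore-forming calcium channel gene in the summed scaled TPM of these genes (%, mean of 3 libraries a group). Cacna1g holds 58.0% of the sum in SCDM and Cacna1a 35.9% in FIBCL.

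**Figure D4:**
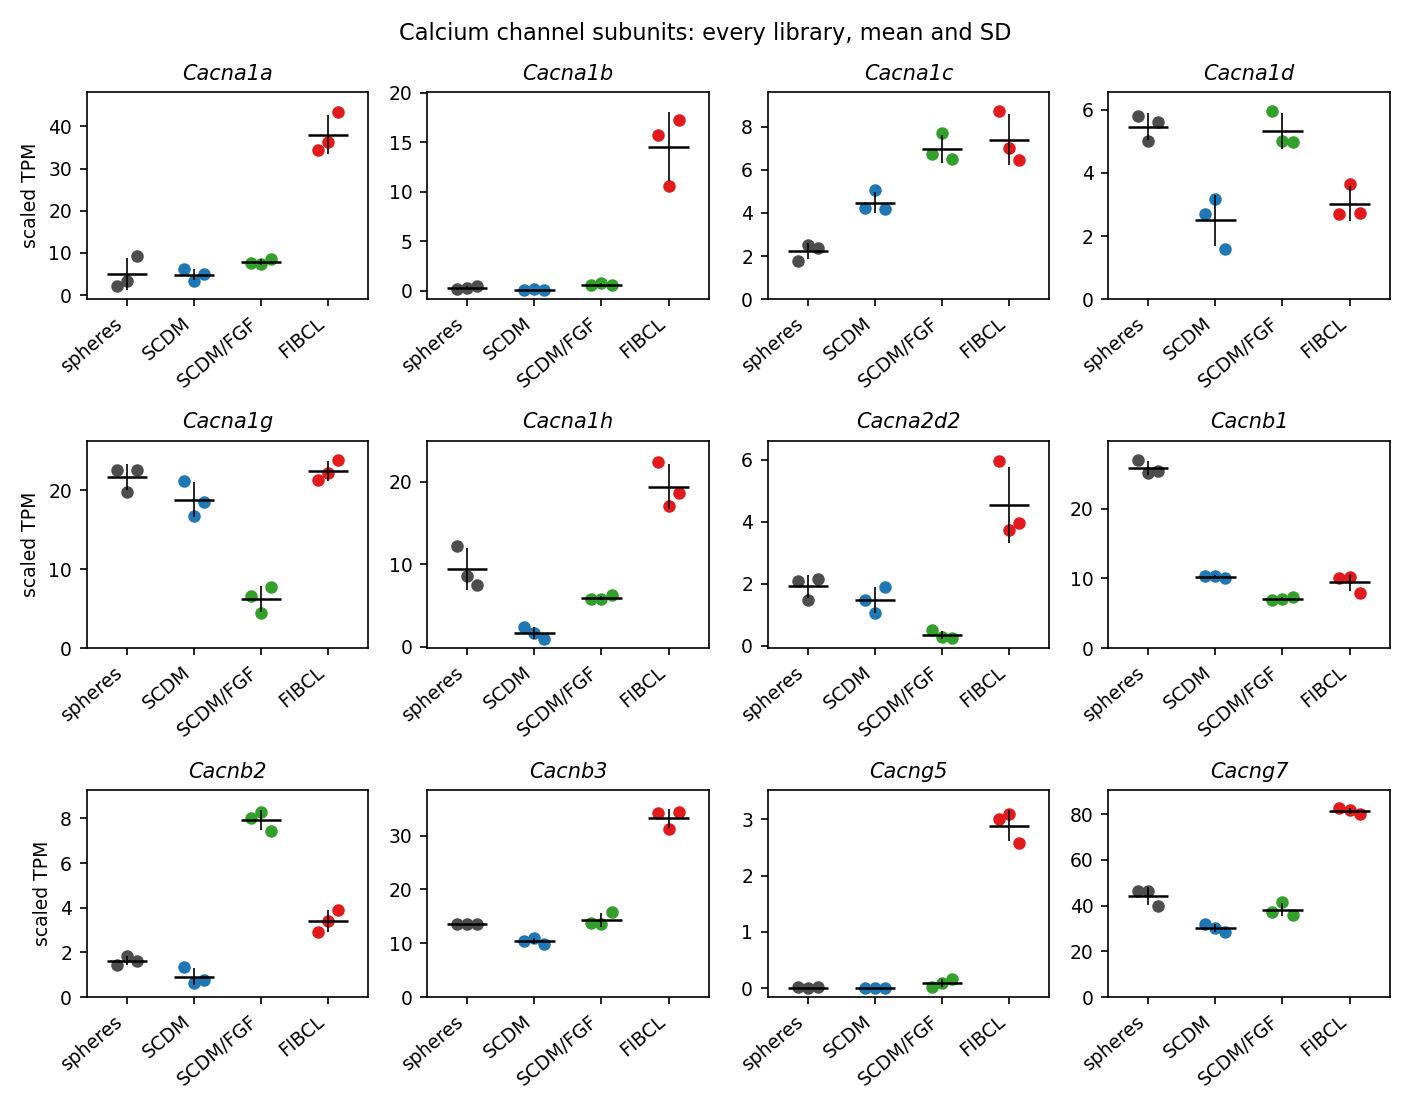
Scaled TPM of 12 calcium channel genes in each of the 12 libraries (points), with the group mean (horizontal line) and SD (vertical line); each panel has its own linear axis. Cacna1b and Cacng5 are near 0 outside FIBCL, Cacna1g is lowest in SCDM/FGF, Cacnb1 is highest in spheres and Cacnb2 is highest in SCDM/FGF.

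The intracellular beta subunits carry calcium channel pores to the membrane. Cacnb3, a beta subunit of neurons and smooth muscle, had scaled TPM of 34.1, 31.2 and 34.4 in FIBCL, 13.6, 13.6 and 13.5 in spheres, 10.5, 10.9 and 9.85 in SCDM and 13.7, 13.5 and 15.9 in SCDM/FGF. FIBCL was above and SCDM below all other libraries, and the log2 fold change between them was 1.58 (SE 0.07, adjusted p = 2.6e-09).

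Cacnb1, the beta subunit best known from skeletal muscle, had scaled TPM of 10.1, 10.3 and 7.95 in FIBCL, 26.99, 25.2 and 25.4 in spheres, 10.3, 10.4 and 10.0 in SCDM and 6.96, 7.04 and 7.34 in SCDM/FGF. Spheres were far above the rest, and FIBCL overlapped SCDM. From spheres it fell by 1.26 in SCDM, by 1.73 in SCDM/FGF and by 1.37 in FIBCL (SE 0.08 each, adjusted p = 2.94e-07, 2.42e-08 and 4.68e-08). The leading beta gene was Cacnb1 in spheres, with 62.4% ± 1.2 of the beta sum, and Cacnb3 in FIBCL, with 71.6% ± 2.4.

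Cacnb2, the beta subunit of heart and of hair cells, had scaled TPM of 2.93, 3.40 and 3.88 in FIBCL, 1.43, 1.85 and 1.61 in spheres, 1.36, 0.653 and 0.764 in SCDM and 8.01, 8.30 and 7.43 in SCDM/FGF. SCDM/FGF was the highest group, and all groups were separate. FIBCL was higher than SCDM by 1.205 (SE 0.14, adjusted p = 1.16e-05) and fell by 1.02 against SCDM/FGF (adjusted p = 4.88e-05). Cacnb4, a beta subunit of brain, did not pass the filter. It was at 4.73 scaled TPM in the second SCDM/FGF library and at 0.179 to 0.394 in the other 11.

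The alpha2delta subunits are extracellular proteins that raise the number of channels at the membrane, and gabapentin acts on the first and second of them. Cacna2d1 was the most abundant of them in each group. Its scaled TPM was 25.9, 25.6 and 27.7 in FIBCL, 17.4, 19.1 and 21.9 in spheres, 20.7, 24.3 and 21.0 in SCDM and 20.3, 22.3 and 20.3 in SCDM/FGF. Its difference between FIBCL and SCDM was 0.25 (adjusted p = 0.0219), turned to -0.13 on the TPM as deposited, and was not called without the third FIBCL library (0.23, adjusted p = 0.0686), the first SCDM library (0.21, adjusted p = 0.0805) or the third SCDM library (0.22, adjusted p = 0.0753).

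Cacna2d2 had scaled TPM of 5.95, 3.73 and 3.98 in FIBCL, 2.10, 1.48 and 2.16 in spheres, 1.47, 1.05 and 1.89 in SCDM and 0.509, 0.292 and 0.244 in SCDM/FGF. SCDM/FGF was lowest and FIBCL highest, without overlap with the others, and FIBCL was higher than SCDM by 1.16 (SE 0.18, adjusted p = 0.000115). Cacna2d3, an alpha2delta subunit needed for auditory nerve synapses, had scaled TPM of 1.98, 2.18 and 2.43 in FIBCL, 0.0169, 0.105 and 0.210 in spheres, 0.209, 0.084 and 0.0566 in SCDM and 0.460, 0.443 and 0.629 in SCDM/FGF. It reached 1 only in FIBCL, so that a difference was built into the filter. FIBCL was higher than SCDM by 1.52 on the log2 scale (SE 0.11). Lrtm1, which lies within Cacna2d3 on the opposite strand, reached 3.21 TPM. Cacna2d4 stayed at or under 0.141 scaled TPM.

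The Cacng genes encode 4-pass membrane proteins. Cacng1 and Cacng6 belong to muscle calcium channels, while Cacng2, Cacng3, Cacng4, Cacng5, Cacng7 and Cacng8 are better known as auxiliary proteins of AMPA-type glutamate receptors, so their RNA is not a measure of calcium channels alone. Cacng7 had scaled TPM of 82.5, 81.7 and 80.1 in FIBCL, 46.6, 46.2 and 39.8 in spheres, 31.9, 30.1 and 28.5 in SCDM and 37.2, 41.6 and 36.1 in SCDM/FGF. It made up 91.8% to 97.2% of the gamma sum in the 4 groups, FIBCL stood above all other libraries, and the log2 fold change against SCDM was 1.40 (SE 0.07, adjusted p = 8.38e-09).

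Cacng5 had scaled TPM of 0.0169, 0 and 0.0168 in spheres, was listed at 0 in all SCDM libraries, and had 0.0196, 0.0905 and 0.173 in SCDM/FGF and 3.00, 3.09 and 2.57 in FIBCL. FIBCL alone was above 1, so that a difference was built into the filter. The log2 fold change was 1.83 against SCDM/FGF (SE 0.10). Cacng8 had scaled TPM of 2.75, 3.04 and 2.98 in FIBCL, 0.110, 0.367 and 0.252 in spheres, 0.257, 0.401 and 1.05 in SCDM and 1.89, 5.18 and 1.24 in SCDM/FGF. The second SCDM/FGF library, which also carried the lone Cacnb4 value, was the highest of all 12, and SCDM/FGF overlapped FIBCL. FIBCL was higher than SCDM by 1.35 (SE 0.31, adjusted p = 0.00224), and against SCDM/FGF the difference was 0.20, with a 95% confidence interval from -0.49 to 0.89.

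Cacng4 passed the filter only through spheres, at 1.97 to 2.08 scaled TPM, against 0.274 to 0.299 in SCDM, 0.0609 to 0.166 in SCDM/FGF and 0.947 to 1.48 in FIBCL. It was higher in FIBCL than in SCDM by 0.71 (SE 0.11, adjusted p = 0.000117) and fell by 0.52 against spheres. Cacng2, known as stargazin, had its highest value of 0.249 in FIBCL. Cacng1, Cacng3 and Cacng6 stayed at or under 0.193, 0.294 and 0.0402 scaled TPM. The gamma genes also lie in clusters, with Cacng1, Cacng4 and Cacng5 on chromosome 11 (chr11:107703218-107915055) and Cacng7, Cacng8 and Cacng6 on chromosome 7 (chr7:3332955-3435667), and members of a cluster differed widely in level.

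For calcium channels, the summed TPM of accessory genes exceeded that of pore-forming genes in all libraries. The accessory genes summed to 168.2 ± 2.9 scaled TPM in FIBCL (SD, n = 3). In the other groups the accessory sum was 109.4 ± 1.9 for spheres, 76.5 ± 2.6 for SCDM and 94.6 ± 8.3 for SCDM/FGF. On scaled TPM, no group overlapped another, with FIBCL highest and SCDM lowest. On the TPM as deposited, FIBCL (mean 135.3) and spheres (mean 128.3) overlapped, so their separation depends on the rescaling.

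The balance between the classes differed as well. The calcium accessory to pore-forming ratio, which does not depend on the scaling, was 1.48 to 1.69 in FIBCL, 2.20 to 2.75 in spheres, 2.10 to 2.58 in SCDM and 2.57 to 3.28 in SCDM/FGF. FIBCL libraries had the lowest ratios, below those of every other library, and the other groups overlapped. Leaving out the gamma genes, the ratio was 0.712 to 0.783 in FIBCL and 1.22 to 1.79 in the other libraries. These ratios are given without a test, since members of a class are not replicates and 1 or a few abundant genes carry each sum.

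**Figure D5:**
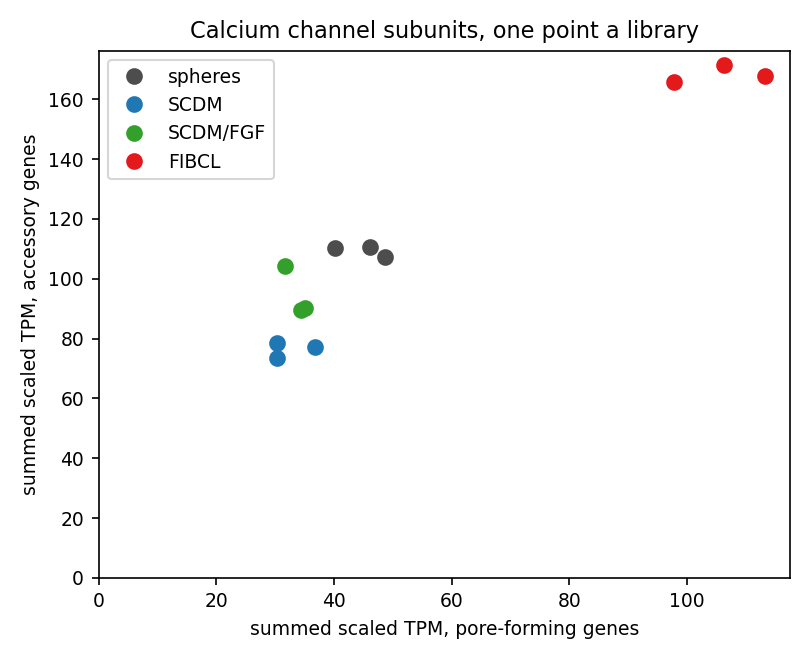
Summed scaled TPM of accessory genes (y axis) against pore-forming genes (x axis) of calcium channels, 1 point a library, both axes linear from 0. The FIBCL libraries lie apart at 97.7 to 113 pore-forming and 166 to 171 accessory TPM, while the other groups differ mainly along the accessory axis.

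FIBCL was also set against the other groups, which share the FIBCL libraries, so these comparisons are not independent of the one above. Against SCDM/FGF, 14 subunit genes were higher and 4 lower, with 32.5% and 38.2% of all genes. Past 1 on the log2 scale there were 11 and 2, with 12.0% and 15.8% of all genes. Cacna1d, Cacnb2, Scn2a and Scn7a were the lower genes. Against spheres, 14 were higher and 6 lower, with 32.9% and 38.7% of all genes, and 9 and 1 at a log2 fold change of at least 1, with 12.5% and 15.5%. The lower genes there were Cacna1d, Cacnb1, Cacng4, Scn2a, Scn2b and Scn7a. Cacnb1 was called higher in FIBCL than in SCDM/FGF by 0.35, which was not called on the TPM as deposited (0.07, adjusted p = 0.548).

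SCDM was then compared with spheres. Relative to spheres, 4 subunit genes were higher and 9 were lower in SCDM, with 24.5% and 25.8% of all genes. Of the 12 tested accessory genes, 6 were lower and Scn3b was higher, by 0.61 (adjusted p = 0.000891). Cacna1h fell by 2.00 (SE 0.21, adjusted p = 1.05e-05) and Cacng4 by 1.23, while Cacna1c was higher by 0.77, Scn2a by 0.58 and Scn7a by 0.44. Cacng4 passed the filter only through spheres, so that its fall was built into the filter here and against spheres in the other groups. Scn8a fell by 0.69 (adjusted p = 0.0159), a call lost without the second SCDM library (-0.59, adjusted p = 0.0594) or the third sphere library (-0.50, adjusted p = 0.0668).

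In SCDM/FGF, 6 subunit genes were higher and 7 lower than in spheres, with 25.0% and 25.4% of all genes. Cacnb2 was higher by 1.76, Cacng8 by 1.47, Cacna1c by 1.31 and Scn3b by 1.10, whereas Cacnb1 fell by 1.73, Cacna1g by 1.67 and Cacng4 by 1.45. The lower calls of Cacna1h (-0.57, adjusted p = 0.0417) and Cacng7 (-0.20, adjusted p = 0.0362) were weak. That of Cacna1h was lost without the first sphere library (-0.38, adjusted p = 0.161), and also without the second sphere, the second SCDM, the third FIBCL or any SCDM/FGF library (-0.61 to -0.55). That of Cacng7 was lost without the first or second sphere library or the first or the third SCDM/FGF library (-0.18 to -0.16). Changes of the model also removed these calls. The Cacna1h call was lost with no filter (adjusted p = 0.0855) and with 0.1 or 0.5 added in place of 1 (adjusted p = 0.0861 and 0.0578). For Cacng7 it was lost with no filter (adjusted p = 0.0644), without the variance trend (adjusted p = 0.0535) and with only the 2 groups compared (adjusted p = 0.0975).

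SCDM/FGF differed from SCDM by bFGF alone among the listed components. Here 10 subunit genes were higher and 4 lower, with 21.8% and 21.3% of all genes. Cacnb2 was higher by 2.23 (SE 0.14, adjusted p = 2e-07) and Cacna1h by 1.43 (SE 0.21, adjusted p = 0.000179). Cacna1g fell by 1.47 (SE 0.15, adjusted p = 9.94e-06), so that the T-type genes Cacna1g and Cacna1h went in opposite directions. Cacna2d2 fell by 0.86, Scn2a by 0.80 and Cacnb1 by 0.47. Cacng8 was higher by 1.16 (adjusted p = 0.011), or 0.73 without the second SCDM/FGF library, and this call was lost when only the 2 groups compared were in the model (1.16, adjusted p = 0.0659). Cacna1b was higher by 0.53 (adjusted p = 0.0216), a call lost without the first SCDM library (0.50, adjusted p = 0.0628), the third SCDM library (0.51, adjusted p = 0.0595) or the second SCDM/FGF library (0.47, adjusted p = 0.0716). With no filter on low values this call was lost as well (0.53, adjusted p = 0.0542).

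Genes that work with these channels were followed in 5 lists, in FIBCL against SCDM, where 32.7% of all genes were higher and 39.0% lower. The lists were chosen with earlier results of these data known, and a gene could pass the filter through FIBCL alone. Their counts and medians therefore describe the tested genes and are no test of a list. Among presynaptic active zone partners of calcium channels, 12 of 12 tested genes were higher, with a median log2 fold change of 2.02. The most abundant were Stx1a, a fusion protein that binds N-type and P/Q-type pores, at 35.2 ± 0.7 against 5.76 ± 0.84 scaled TPM (log2 fold change 2.43), Erc1, a scaffold, at 21.4 ± 1.3 against 13.0 ± 1.8 (0.69), and Bsn, which encodes the scaffold bassoon, at 20.1 ± 2.0 against 10.9 ± 1.5 (0.83).

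Axon initial segment and sodium channel partners were mixed, with 6 of 14 tested genes higher and 4 lower. Tnc, a matrix protein, was lower by 2.11 and Ank2, an ankyrin, by 0.51, while Ank3, the ankyrin that anchors sodium channels, was at 19.6 ± 1.0 in FIBCL and 20.0 ± 2.8 in SCDM (log2 difference -0.02, adjusted p = 0.878). Of 14 tested regulators of calcium channels, 10 were higher and 2 lower. The calmodulin genes Calm2 and Calm3 were lower by 0.29 and higher by 0.21, and Ahnak, a large scaffold protein, was lower by 2.62.

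Of 12 tested genes for calcium release, pumps and exchangers, 7 were higher and 2 lower. Atp2a2, the calcium pump of the endoplasmic reticulum, showed a log2 difference of -0.07 (adjusted p = 0.191), while Atp2b1, a plasma membrane pump, was higher by 0.32 and Itpr3, a calcium release channel, by 0.91. Of 8 tested related cation channel genes, 4 were higher and 2 lower. Hcn2, a pore of the hyperpolarisation-activated current, was at 21.1 ± 0.4 in FIBCL and 0.841 ± 0.1504 in SCDM (log2 fold change 3.59, adjusted p = 3.24e-11). The endolysosomal channel gene Tpcn1 was lower by 1.22, and Tpcn2 had a log2 difference of -0.05 (adjusted p = 0.722).

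Cell type markers differed between the groups as well. Neuron markers summed to 495 to 514 scaled TPM in FIBCL, with 7 of 9 at 1 or more in all 3 libraries, and to at most 221 in the other groups, with 4 or 5 of 9. Gap43 held most of the sum outside FIBCL, with means of 157 in spheres, 192 in SCDM and 87.3 in SCDM/FGF. Its mean was lowest in FIBCL, at 73.1, whereas every other neuron marker had its highest mean there. Spiral ganglion neuron markers summed to 93.4 to 96.8 in FIBCL (8 of 8 at 1 or more) and to 22.8 to 27.9 elsewhere (1 of 8). Glial markers were all present in the spheres labelled as glial, with 8 of 8 at 1 or more, and 4 of 8 were at that level in FIBCL. Outside FIBCL, fibroblast markers summed to 1777 to 4620 (5 of 5), macrophage markers to 53.0 to 599.8 and smooth muscle and pericyte markers to 7.07 to 292, compared with 26.3 to 29.4, 156 to 182 and 5.46 to 6.35 in FIBCL. Endothelial markers summed to 3.67 to 39.8 over all libraries, hair cell markers to 6.04 to 47.9, skeletal muscle markers to 0.263 to 6.32, melanocyte markers to 0.561 to 2.15 and cardiomyocyte markers to 0 to 0.410. Of the macrophage sum in FIBCL, Cd68 held 164 scaled TPM on average, and 2 of 5 macrophage markers were at 1 or more there. The other 4 had means of 0.0369 to 3.38 in FIBCL, below their means of 0.871 to 12.1 in spheres. The part of such shifts in cell makeup in the subunit differences was not tested.

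Promoter sequence was examined for features the choice of genes did not use. RefSeq windows from 250 bases before to 50 after the start site (GRCm38.p6) were at hand for 30 of the 38 genes, 41 windows in all, and for 32851 windows genome-wide. Motifs were searched on both strands. CAGCTG, a palindromic E-box bound by proneural factors among others, was found in 13 of 41 subunit windows and in 16.3% of all windows. GGACAG, the right part of the element of the neuronal repressor REST, was in 7 of 41 and in 22.2% of all. The left part of that element (TTCAGCACC) and the cAMP response element (TGACGTCA) were each in 0 of 41 subunit windows, compared with 0.371% and 1.79% of all windows.

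The E-box stretches of Cacna1b and Cacna2d3 are shown since both genes reached 1 TPM only in FIBCL. Cacng5, the third gene that did so, had no CAGCTG in either of its windows. They lie upstream of the start site at chr2:24763153-24763212 and chr14:29722004-29722063, both on the minus strand, and are written 5′ to 3′ with CAGCTG in capitals.

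Cacna1b: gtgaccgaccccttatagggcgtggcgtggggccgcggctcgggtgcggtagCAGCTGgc

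Cacna2d3: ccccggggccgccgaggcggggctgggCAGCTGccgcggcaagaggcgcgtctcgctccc

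The motif begins 8 bases before the start site of Cacna1b and 172 bases before that of Cacna2d3. It was also found near genes that were not higher in FIBCL, such as Scn7a and Cacna1d, and a match describes these letters alone. Windows of Scn3b, Cacna1a, Cacna1g and Cacna1h were not examined.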

How the data were processed

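The authors deposited 1 table of TPM values, made with TopHat for alignment and RSEM for quantification after read trimming (SeqPrep, Sickle). Cufflinks is also named in the processing notes, the authors tested with EdgeR, and the genome build is not given in the sources used here. TPM keeps no read number, so library depth is unknown, and the libraries had 21625 to 22281 genes above 0. The FIBCL columns carry the name FIBC and were matched to FIBCL, the only such group in the labels; the study's text also uses FIBC for the mixture without LIF, so that the FIBCL values rest on this match.

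For rescaling, each library was compared with the mean of all libraries. The log2 ratios of the 8434 genes that reached 5 TPM throughout were averaged after trimming 30% at each end. The log2 offsets taken off were -0.39 to -0.26 in FIBCL and 0.20 to 0.25 in spheres. They were 0.073 to 0.10 in SCDM and -0.022 to 0.031 in SCDM/FGF, so rescaling raised FIBCL values and lowered those of spheres. Genes with at least 1 TPM in 3 libraries were tested with limma 3.58.1 (R 4.3.3, trended moderated variances, two-sided) on log2(scaled TPM + 1), with all 4 groups in the model and no covariates, with Benjamini-Hochberg adjustment within each of 6 comparisons. The p-values measure the spread between 3 labelled biological replicates a group. Values in every library are given for subunit genes called in FIBCL against SCDM with a change of 1 or more on the log2 scale or with a mean of at least 1 scaled TPM; from each partner list the 3 most abundant tested genes are named. The subunit genes, lists and markers were chosen with earlier results of these data known. The symbol rule found 40 subunit genes, of which 2, and 1 gene of the partner lists, are not reported here and enter no count or sum, and class sums are therefore given for calcium channels alone. Positions and transcripts are from GENCODE M21 (GRCm38). The design had planned no test of the 2 subunit classes. Alternatives covered scaling, filter, pseudocount, thresholds, the variance trend, the libraries in the model, a replicate block and leaving out each library. Tables and plots used Python 3.11.15, pandas 2.3.3 and matplotlib 3.10.9.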

Additional observations from a re-analysis of the deposited data

Results flagged for a closer look

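Cacnb2, a beta subunit gene of calcium channels, moved in opposite directions from spheres in the media without and with bFGF. It was lower in SCDM than in spheres by 0.46 on the log2 scale (value -0.46) and higher in SCDM/FGF than in spheres by 1.76. The difference between these changes equals that between SCDM/FGF and SCDM and was 2.23 (SE 0.14, limma adjusted p = 2e-07), with all 3 SCDM/FGF libraries above all 3 SCDM libraries. Both changes are measured from the same sphere libraries. The lower call in SCDM was lost without the second SCDM library (-0.36, adjusted p = 0.0709), the third SCDM library (-0.41, adjusted p = 0.0612) or the second sphere library (-0.40, adjusted p = 0.0611), whereas the higher level in SCDM/FGF kept its call in each of these.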

How the results depend on the processing

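The 95 pairs of subunit gene and comparison that were called gave 2019 values under 22 alternative fits, of which 1983 kept direction and call, 34 kept direction without the call and 2 reversed. The reversed values were those on the TPM as deposited, for Cacna2d1 (FIBCL against SCDM -0.13, FIBCL against spheres -0.095). Without rescaling, the median of all genes in FIBCL against SCDM moved from -0.072 to -0.401. Libraries with the same replicate number did not deviate together (correlations of same-numbered deviations -0.121 to 0.0976). Whether they came from the same dissection is not stated. With a replicate block, 15 subunit genes were higher and 2 lower in FIBCL than in SCDM, and 0 of the 95 calls were lost. Counts are given as higher and lower. At a log2 fold change of at least 1, they were 9 and 1 in FIBCL against spheres, 0 and 3 in SCDM against spheres and 3 and 1 in SCDM/FGF against SCDM, and the lower count was 2 in FIBCL against SCDM/FGF and 4 in SCDM/FGF against spheres. At 1.5, they were 8 and 0, 8 and 0, and 7 and 0 in FIBCL against SCDM, SCDM/FGF and spheres, 0 and 1 in SCDM against spheres, 1 and 2 in SCDM/FGF against spheres and 1 and 0 in SCDM/FGF against SCDM. With a filter of 5 TPM, 13 subunit genes were tested, and the lower counts were 0, 2 and 2 for FIBCL against SCDM, SCDM/FGF and spheres, with 2 higher in SCDM against spheres, 3 higher and 4 lower in SCDM/FGF against spheres, and 2 lower in SCDM/FGF against SCDM. Fewer genes tested or a higher fold required lowers such counts by construction. Over all 16016 genes tested, calls at a log2 fold change of at least 1 were 1112 higher and 874 lower in SCDM against spheres. They were 1184 and 758 in SCDM/FGF against spheres and 917 and 647 in SCDM/FGF against SCDM. Counts over all genes were not taken at 1.5 or with the filter of 5 TPM, so those subunit counts have no background beside them. Leaving out each library gave 11 to 16 higher and 2 to 2 lower genes in FIBCL against SCDM, 11 to 15 and 4 to 4 against SCDM/FGF and 11 to 14 and 6 to 6 against spheres, and 4 to 6 and 7 to 9 in SCDM against spheres, 5 to 7 and 5 to 7 in SCDM/FGF against spheres, and 8 to 11 and 4 to 4 in SCDM/FGF against SCDM. Without a FIBCL library, 18 subunit genes were tested. As deposited, calcium channel pore genes summed to 52.8 TPM in spheres and 84.9 in FIBCL, and accessory genes to 128.3 in spheres, 81.1 in SCDM and 135.3 in FIBCL. Without the gene of each class that was most abundant on average over the 12 libraries (Cacna1g and Cacng7), pore sums were 23.3, 13.7, 27.5 and 83.3 and accessory sums 65.2, 46.3, 56.3 and 86.8 scaled TPM in spheres, SCDM, SCDM/FGF and FIBCL. Depth is unknown, so values near 0 carry no detection limit.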
